A study of Mus musculus with 2 samples.

Results

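The genes described here are 10 genes of cellular iron handling, Tfrc, Trf, Slc11a2, Fth1, Ftl1, Slc40a1, Cp, Hmox1, Aco1 and Ireb2, chosen by gene symbol from the 32285 features of the count tables, and all 10 were found. They were measured by single-cell RNA sequencing of brain cells from mice at postnatal day 10, of the strain given as C57BL/J, with no treatment, mutation or control group. There were 2 libraries of this 1 group. The series names 6 mice without tying any mouse to a library. With library as a block, p-values measure only how differences between classes vary between these 2 libraries, pooled over classes. That spread may be technical. The comparisons are therefore between cell types within each library.

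Brain cells take up iron bound to transferrin, the product of Trf, through the transferrin receptor encoded by Tfrc, and Slc11a2 encodes the transporter DMT1 that moves iron out of endosomes into the cytosol. Ferritin, a shell of heavy (Fth1) and light (Ftl1) chains, stores iron, ferroportin (Slc40a1) exports it, and the ferroxidase ceruloplasmin (Cp) oxidises it on the way out. Haem oxygenase 1 (Hmox1) frees iron from haem. The iron regulatory proteins encoded by Aco1 and Ireb2 bind iron-responsive elements in messenger RNAs when iron is scarce, which holds back translation of ferritin and ferroportin and protects the Tfrc message from decay.

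The iron-responsive element is a short hairpin with an unpaired C below a 6-base loop. The sense strand, that of the messenger RNA, was searched in all annotated untranslated regions for a C, then 5 bases, the loop CAGTGN and 5 more bases. The stretches on either side of the loop had to be able to pair (A with T, G with C, G with T). Elements were found in 4 of the 10 genes. Fth1, Ftl1 and Slc40a1 carried 1 element each in the 5′ untranslated region, and Tfrc carried 4 in the 3′ untranslated region. The sites are printed as DNA, 5′ to 3′ on the sense strand, from GENCODE release M21 transcripts on build mm10. The unpaired C and the loop are in capitals.
Fth1, 5′ untranslated region, chr19:9982731-9982760, plus strand: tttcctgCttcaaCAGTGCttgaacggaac
Ftl1, 5′ untranslated region, chr7:45459779-45459808, minus strand: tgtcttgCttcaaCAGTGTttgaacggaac
Slc40a1, 5′ untranslated region, chr1:45925465-45925494, minus strand: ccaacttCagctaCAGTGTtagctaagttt
Tfrc, 3′ untranslated region, chr16:32631218-32631247, plus strand: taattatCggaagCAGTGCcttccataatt
Tfrc, 3′ untranslated region, chr16:32631597-32631626, plus strand: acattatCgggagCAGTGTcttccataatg
Tfrc, 3′ untranslated region, chr16:32631662-32631691, plus strand: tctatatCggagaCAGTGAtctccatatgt
Tfrc, 3′ untranslated region, chr16:32631709-32631738, plus strand: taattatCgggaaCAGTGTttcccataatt
Of 21901 genes with coding transcripts, 31 (0.142%) held such a match in a 5′ untranslated region and 129 (0.589%) in a 3′ untranslated region. The other 6 genes had none, which says only that these letters are not in the annotated regions. A match describes the sequence, and the UMI counts below measure RNA, not protein.

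Library 1 held 12978 barcodes and library 2 held 19508, with medians of 3446 and 1470 unique molecular identifiers (UMIs, each marking 1 captured RNA molecule). The libraries shared 90 barcodes. After quality filtering, 11992 and 14067 cells remained, of which 10698 and 8676 fell into 19 named classes. Cells were clustered without the 10 genes and without a wider list of iron genes, and a class is called X-like after its marker genes. The unnamed 1294 and 5391 cells had medians of 4124 and 1025 UMIs. Levels are in CPM, the UMIs of a gene summed over the cells of a class in a library and scaled to a common total, so each class has 1 value per library, n = 2. RNA of the 4 globin genes summed to 0 to 3.84 CPM in the compared classes of library 1 other than endothelial-like cells (3056 CPM), and to 132 CPM or more in those of library 2. Its part in any result was not tested.

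Over the 17 classes of 10 or more cells per library, the 10 genes ranged from nearly even to sharply restricted. The highest class mean was 4.58-fold over the lowest for Ireb2, 8.36-fold for Ftl1, 9.36-fold for Aco1, 11.1-fold for Fth1, 16.2-fold for Slc11a2, 130-fold for Tfrc and 178-fold for Hmox1. Trf, Slc40a1 and Cp had no UMI in at least 1 class, and their highest class stood 53.7-fold, 687-fold and 96.6-fold over the median class. The heat map of all classes shows that the highest levels lay in endothelial-like, border macrophage-like and microglia-like cells for most of the genes.

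**Figure D1:**
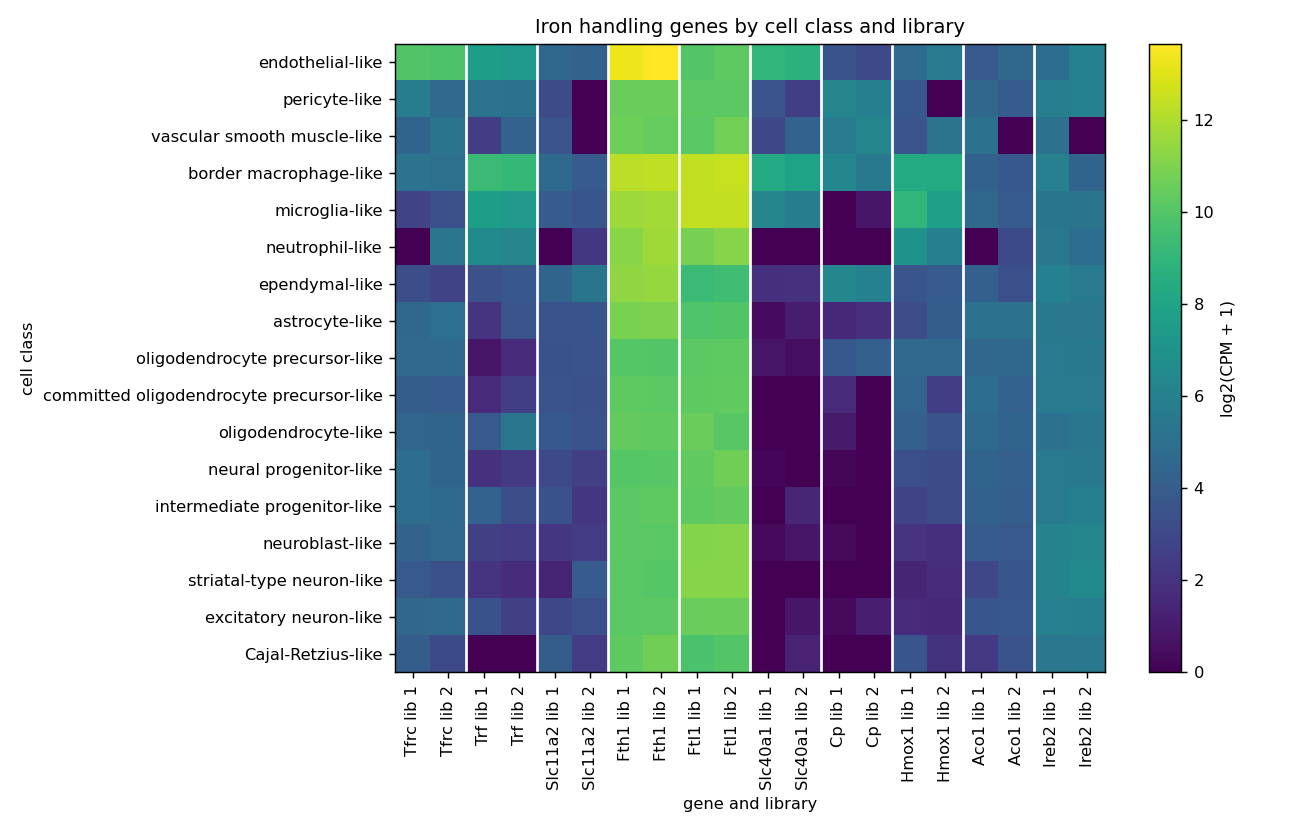
Level of each gene as log2(CPM + 1), by colour, in the 17 classes (rows) with at least 10 cells per library, with library 1 and library 2 as neighbouring columns for each gene. Bright rows are endothelial-like, border macrophage-like and microglia-like cells. The neighbouring columns are alike for most classes, with Slc40a1 bright in those 3 classes and dark elsewhere.

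Each of the 12 classes of 40 or more cells per library was compared with the mean log level of the other 11 in 1 edgeR quasi-likelihood fit over 14881 genes. To be called, a gene needed a Benjamini-Hochberg adjusted p under 0.05, a change of 1 or more on the log2 scale, and 1 direction shared by the 2 libraries. Of 120 tests of the 10 genes, 41 were called, 23 higher and 18 lower. Because the contrast averages logs, a class without UMIs pulls the average down. Slc40a1 had no UMI in striatal-type neuron-like cells, and Cp had none in these and in intermediate progenitor-like cells. For these 2 genes the calls therefore lean towards higher and a lower call is hard to reach, so their levels are the better guide. In 5 of the 41 calls the plain mean CPM went the other way, and each is named where it arises.

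Among the uptake genes, Tfrc was by far highest in endothelial-like cells, which line the blood vessels. Endothelial-like cells had 973 CPM of Tfrc in library 1 and 926 CPM in library 2 (950 ± 33.1 CPM, SD, n = 2), against 23.9 and 20.8 CPM in the mean of the other 11 classes. Both endothelial-like values lay far above every other class, 24.9-fold over the next mean, and the log2 fold change was 5.59 ± 0.03 (SE over libraries, edgeR adjusted p = 8.94e-64). Pericyte-like (38.1 ± 19.6 CPM) and border macrophage-like cells (33.9 ± 2.95 CPM) followed, and from there down to striatal-type neuron-like cells (11.2 ± 2.58 CPM) each class overlapped its neighbour. The lowest levels were in ependymal-like cells, with 8.61 and 5.98 CPM, and in microglia-like cells, with 5.92 and 8.90 CPM, which overlapped each other. Tfrc was called lower in ependymal-like (log2 -2.26), microglia-like (-1.38) and striatal-type neuron-like cells (-1.49).

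Counted per cell, with every cell thinned to 1000 UMIs, Tfrc was seen in 52.3% of endothelial-like cells in library 1 and 45.7% in library 2. In neuroblast-like cells the shares were 1.93% and 2.30%. Exact binomial 95% intervals were 42.5% to 62.1% and 36.8% to 54.7% in endothelial-like cells, from 107 and 127 cells. Thinning left out 4 endothelial-like cells of library 1 and 144 and 112 neuroblast-like cells. Without thinning the Tfrc shares were 89.2% and 89.0% in endothelial-like cells (median 5847 and 4476 UMIs) and 3.81% and 4.53% in neuroblast-like cells (median 1859 and 1876.5 UMIs). Intervals here and below cover counting error only.

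Trf, the gene of the iron carrier itself, was highest in border macrophage-like cells, with 619 and 533 CPM (576 ± 60.7 CPM, SD, n = 2), against 43.0 and 37.7 CPM in the mean of the other classes. Microglia-like cells had 193 and 168 CPM and endothelial-like cells 192 and 164 CPM, and these 2 classes overlapped. The 3 classes were called higher, with log2 fold changes of 5.72, 4.14 and 3.89. Neutrophil-like cells (79.6 ± 9.96 CPM) and pericyte-like cells (35.0 ± 1.59 CPM) came next, and pericyte-like cells were called higher (log2 1.24) although their mean CPM was below that of the other classes (35.0 against 89.5 CPM). Oligodendrocyte-like cells, the mature cell type known for Trf in the adult brain, had 13 and 40.3 CPM from 242 and 13 cells. Trf was called lower in 6 classes, among them oligodendrocyte precursor-like cells with 0.697 and 2.06 CPM (log2 -4.21, edgeR adjusted p = 1.53e-06), neural progenitor-like cells with 2.85 and 4.08 CPM and astrocyte-like cells with 3.34 and 11 CPM. Cajal-Retzius-like cells had no Trf UMI in either library. All 6 lower calls were lost at a limit of 10 cells (adjusted p = 1) and with 4000 variable genes, where Trf changed sign in astrocyte-like (log2 0.19) and excitatory neuron-like cells (0.27). With doublets kept 5 were lost, all but the one in striatal-type neuron-like cells, and at a limit of 100 cells 5 were lost, all but the one in oligodendrocyte precursor-like cells, with a changed sign in excitatory neuron-like cells (0.054). The astrocyte-like and excitatory neuron-like calls were also lost with stricter cell limits and at resolution 1.

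Slc11a2 was low everywhere, between 1.81 and 29.3 CPM in class means. Ependymal-like cells had 19.8 and 38.9 CPM (log2 1.07, edgeR adjusted p = 0.0011), against 10.9 and 9.25 CPM in the mean of the other classes. Endothelial-like cells had 23.8 and 19.4 CPM (log2 1.33, adjusted p = 0.00131) and border macrophage-like cells 24.0 and 14.0 CPM. These 3 classes overlapped. Neuroblast-like cells had 3.51 and 4.11 CPM and were called lower (log2 -1.42, adjusted p = 5.39e-06); with stricter cell limits the log2 fold change was -0.90, under the limit of 1.

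**Figure D2:**
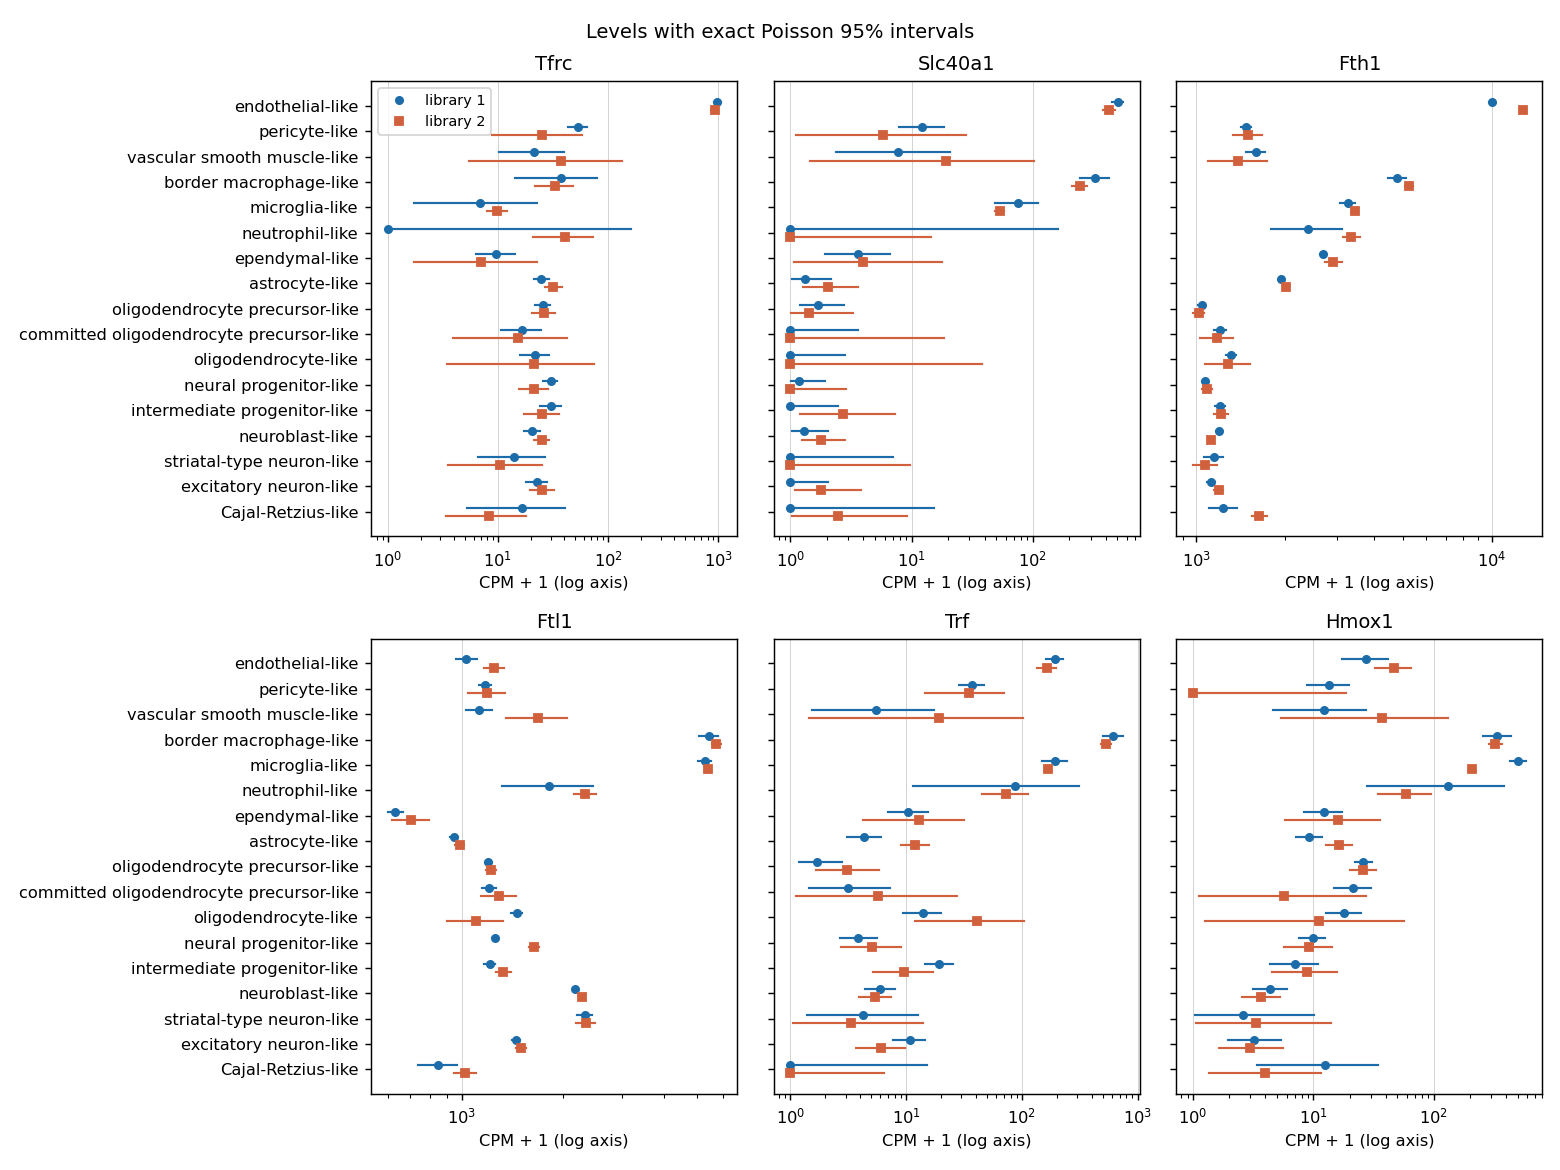
CPM + 1 on a log axis for Tfrc, Slc40a1, Fth1, Ftl1, Trf and Hmox1 in 17 classes, with library 1 as circles and library 2 as squares and bars for exact Poisson 95% intervals. Endothelial-like cells stand alone for Tfrc at 973 and 926 CPM and lead Fth1 and Slc40a1, while border macrophage-like and microglia-like cells lead Ftl1, Trf and Hmox1.

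Of the storage genes, Fth1 was most abundant in endothelial-like cells and Ftl1 in macrophages. Endothelial-like cells had 10026 and 12786 CPM of Fth1 (11406 ± 1952 CPM, SD, n = 2), against 1898 and 1980 CPM in the mean of the other classes (log2 2.87, edgeR adjusted p = 2.95e-43). Border macrophage-like cells had 4780 and 5233 CPM (log2 1.59) and microglia-like cells 3256 and 3448 CPM (log2 1.18), and neither overlapped the class above it. Neutrophil-like, ependymal-like and astrocyte-like cells followed at means of 2862, 2793 and 1969 CPM. From vascular smooth muscle-like cells (1488 ± 144 CPM) down to oligodendrocyte precursor-like cells (1028 ± 17.8 CPM), which were called lower (log2 -1.11, but -0.91 with stricter cell limits and -0.86 at a limit of 100 cells), the remaining 11 classes lay within a narrow band.

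Ftl1 had 5434 and 5723 CPM in border macrophage-like cells (log2 2.01, edgeR adjusted p = 1.13e-29) and 5285 and 5422 CPM in microglia-like cells (log2 2.17, adjusted p = 4.58e-33). The means of the other classes were 1696 and 1802 CPM in the first contrast and 1710 and 1829 CPM in the second. Striatal-type neuron-like cells (2319 and 2333 CPM) and neuroblast-like cells (2175 and 2271 CPM) came next. Endothelial-like cells, first for Fth1, had 1029 and 1244 CPM of Ftl1 and ranked 14 of 17. Ependymal-like cells were lowest at 631 and 703 CPM and were called lower (log2 -1.76). A near-identical gene copy, Ftl1-ps1, collected 574 and 912 UMIs beside 71228 and 117088 UMIs of Ftl1 over whole libraries, and the sources used here do not say how reads were split between them.

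The heavy chain's share of ferritin UMIs, Fth1 over Fth1 plus Ftl1, therefore differed between classes. It was 90.7% and 91.1% in endothelial-like cells, with exact binomial 95% intervals of 90.1% to 91.3% and 90.6% to 91.7%. It was 80.9% and 80.5% in ependymal-like cells and 67.2% and 67.1% in astrocyte-like cells. Border macrophage-like cells stood at 46.8% and 47.8%, and microglia-like cells at 38.1% and 38.9%. Neuroblast-like cells (35.4% and 33.1%) and striatal-type neuron-like cells (33.0% and 31.4%) had the lowest shares. Shares of UMIs compare classes and do not give the chain ratio of the protein.

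**Figure D3:**
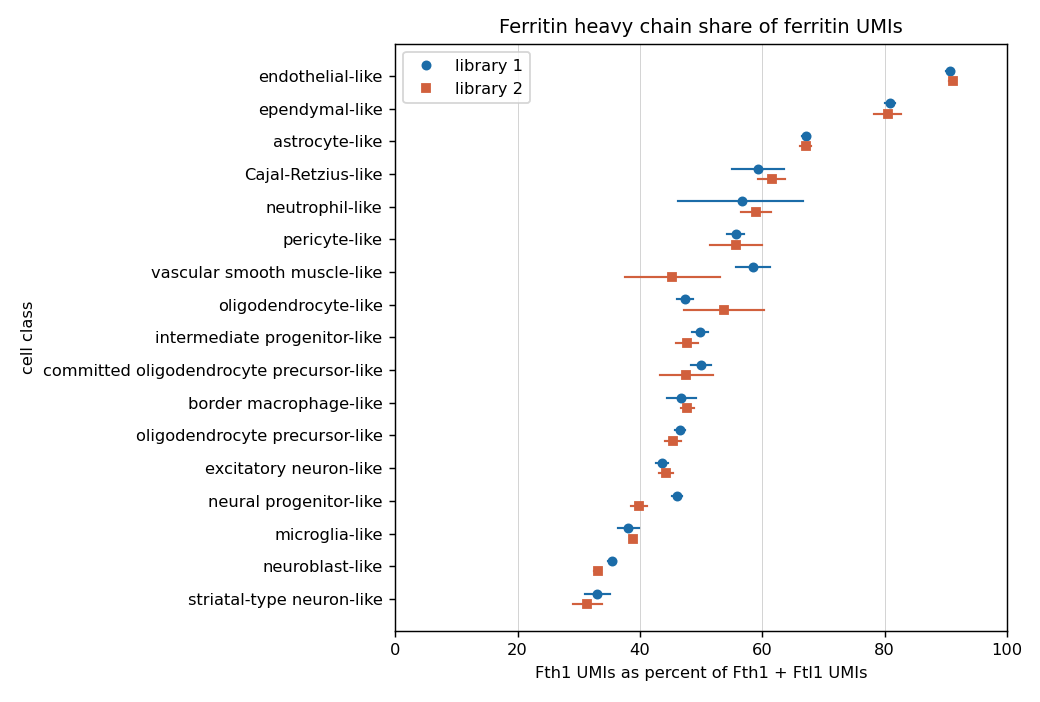
Fth1 UMIs as a percentage of Fth1 plus Ftl1 UMIs (x axis) in 17 classes, sorted by the mean of the 2 libraries, with circles for library 1, squares for library 2 and bars for exact binomial 95% intervals. Endothelial-like cells are at the top near 91% and striatal-type neuron-like cells at the bottom between 31.4% and 33.0%.

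Of the export genes, Slc40a1 was nearly confined to 3 classes of the 17 compared. Endothelial-like cells had 503 and 422 CPM (462 ± 57.7 CPM, SD, n = 2), against 37.6 and 27.9 CPM in the mean of the other classes (log2 8.25, edgeR adjusted p = 4.06e-58). Border macrophage-like cells had 324 and 242 CPM (log2 7.46) and microglia-like cells 74.1 and 52.2 CPM, and the 3 classes did not overlap. Microglia-like cells were called higher (log2 5.31), but on plain CPM the mean of the other classes was 76.6 and 61.5 CPM, above their own. Vascular smooth muscle-like and pericyte-like cells had means of 12.5 and 8.07 CPM and ependymal-like cells 2.79 CPM. Each of the remaining classes was at 1.74 CPM or less in both libraries, and committed oligodendrocyte precursor-like, neutrophil-like, oligodendrocyte-like and striatal-type neuron-like cells had no UMI. Striatal-type neuron-like cells had 0 UMIs against 83.3 and 66.2 CPM in the mean of the other classes. With 3 UMIs per library as the floor, they were at least 9.43-fold below that plain mean. It rests mostly on endothelial-like and border macrophage-like cells. The floor, 4.88 and 7.03 CPM, lies above the level of most of the other classes, so a difference from those cannot be seen. Striatal-type neuron-like cells were called lower (edgeR adjusted p = 0.0309). That call was lost with DESeq2 (adjusted p = 0.0812) and under 4 other settings (adjusted p of 0.14 to 1).

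After thinning to 1000 UMIs, Slc40a1 was seen in 36.4% and 36.2% of endothelial-like cells, 23.3% and 20.6% of border macrophage-like cells and 5.43% and 5.65% of microglia-like cells. In neuroblast-like cells, the largest class, the shares were 0.0316% and 0.133%. The order of shares was that of the CPM. Unthinned shares of Slc40a1 were 81.1% and 80.3% in endothelial-like cells and 0.0605% and 0.161% in neuroblast-like cells, at the median depths given for Tfrc.

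Cp followed a different pattern, with 4 of the 17 compared classes at like levels. Fibroblast-like cells, outside those 17, had more, at 176 and 281 CPM from 42 and 8 cells. Ependymal-like cells had 77.9 and 62.8 CPM, pericyte-like cells 73.9 and 58.1 CPM, border macrophage-like cells 78.1 and 44.6 CPM and vascular smooth muscle-like cells 49.6 and 72.9 CPM, and these 4 classes overlapped. The first 3, which were in the fit, were called higher (log2 5.36, 5.53 and 5.37). Oligodendrocyte precursor-like cells had 12.5 and 17.3 CPM and endothelial-like cells 10.6 and 6.93 CPM. Both were called higher (log2 3.02 and 2.46), while their plain CPM, as a mean of the 2 libraries, was below that of the other classes. In library 2 alone, oligodendrocyte precursor-like cells were above the other classes (17.3 against 16.1 CPM). Astrocyte-like cells, known in the adult brain for a membrane-bound form of Cp, had 1.91 and 2.57 CPM at this age. The ependymal-like cluster was led by Ttr and carried RNA of choroid plexus cells: the 9 choroid plexus epithelial markers summed to 9412 CPM in library 1, all 9 with UMIs, and to 1965 CPM in library 2, 6 with UMIs, against at most 77.3 CPM in any other class. Their part in the level of Cp, or of any other gene in ependymal-like cells, was not tested.

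Hmox1 was highest in microglia-like cells, at 501 and 205 CPM, and in border macrophage-like cells, at 336 and 324 CPM, and these classes overlapped. Both were called higher against the other classes (log2 5.11 and 5.02). Neutrophil-like cells had 130 and 58.0 CPM, endothelial-like cells 26.5 and 45.8 CPM and oligodendrocyte precursor-like cells 25.1 and 25.1 CPM. Endothelial-like cells were called higher (log2 1.49) although the mean CPM of the other classes was above their own (36.1 CPM in endothelial-like cells, against 69.2 CPM). Neuroblast-like (3.36 and 2.69 CPM), excitatory neuron-like (2.22 and 1.96 CPM) and striatal-type neuron-like cells (1.63 and 2.34 CPM) were lowest and called lower, as were intermediate progenitor-like cells (6.00 and 7.81 CPM, log2 -1.31). The intermediate progenitor-like call was lost with DESeq2-type size factors (adjusted p = 0.16), with 4000 variable genes (adjusted p = 1), with doublets kept (0.222) and at a limit of 100 cells (0.799). Under 4000 variable genes the calls in excitatory neuron-like, neuroblast-like and striatal-type neuron-like cells were lost too (adjusted p of 1, 1 and 0.19), the last also with DESeq2-type size factors (0.141) and with doublets kept (0.105).

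Hmox1 is also a stress gene, so its levels are set beside those of genes that cell dissociation switches on. Microglia-like, border macrophage-like and neutrophil-like cells led the classes both for Hmox1 and for these genes, in a different order. The dissociation and immediate early list of 18 genes summed to 16255 and 12819 CPM in microglia-like cells, 16051 and 12778 CPM in border macrophage-like cells and 37279 and 16728 CPM in neutrophil-like cells. It summed to 7558 and 6977 CPM in ependymal-like cells and to at most 4036 CPM in any other of the 17 classes. Within microglia-like cells, the cluster led by Gdf15, Ifnb1 and the chemokine genes Ccl3 and Ccl4 (80 and 1420 cells) had 601 and 251 CPM of Hmox1 and 17510 and 14940 CPM of the list. The cluster led by Gm37963 and Cx3cr1 (12 and 331 cells) had 36.7 and 93.5 CPM of Hmox1 and 11355 and 8412 CPM of the list. The cluster led by Arg1 held 184 cells of library 2 and 3 of library 1, and in library 2 it had 52.6 CPM of Hmox1 and 1404 CPM of the list. The list's part in the Hmox1 level was not tested. Ftl1 was 5817 and 6002 CPM in the first of these clusters, 2311 and 3619 CPM in the second and 5468 CPM in the library 2 cells of the third, where the list was low. Trf varied less, between 141 and 201 CPM in these clusters where they held at least 10 cells.

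**Figure D4:**
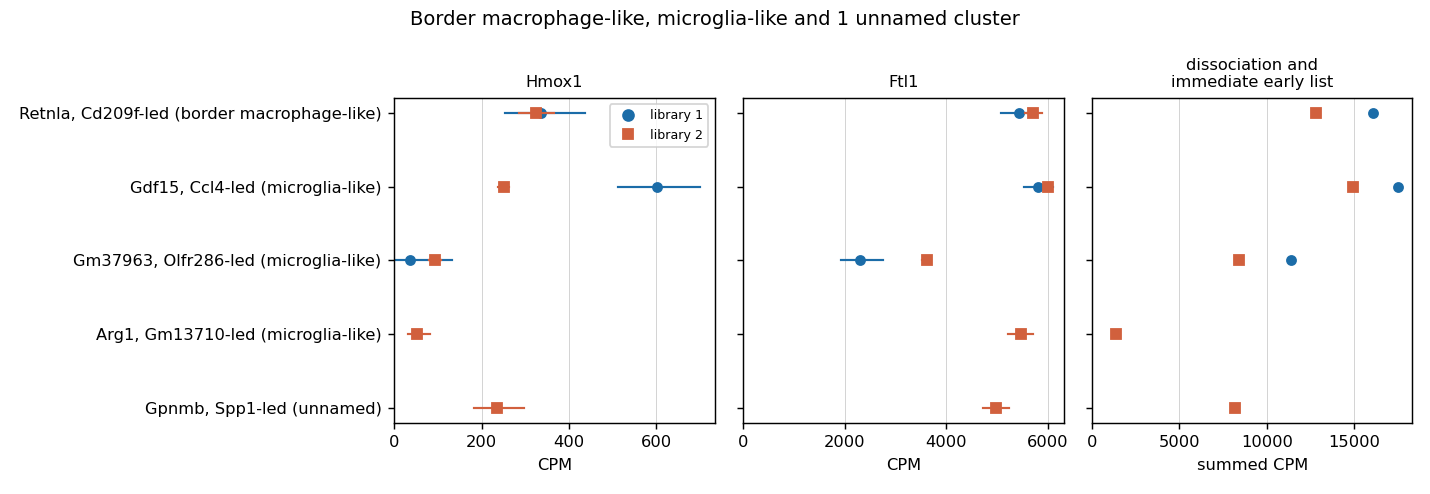
CPM of Hmox1 and Ftl1 with exact Poisson 95% intervals, and summed CPM of the dissociation and immediate early list, in clusters of border macrophage-like and microglia-like cells and 1 unnamed cluster (rows), with circles for library 1 and squares for library 2, shown where a cluster had at least 10 cells. The Arg1-led cluster is low for Hmox1 (52.6 CPM) and for the list but not for Ftl1 (5468 CPM).

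Of the 10 genes, Ireb2 varied least between classes. It was highest in striatal-type neuron-like cells (68.3 and 86.7 CPM) and neuroblast-like cells (67.3 and 73.9 CPM), which overlapped, followed by excitatory neuron-like cells (60.9 and 59.3 CPM). Microglia-like cells had 38.5 and 36.6 CPM. No class was called for Ireb2. Aco1 had its highest mean in astrocyte-like cells, at 32.9 and 34.9 CPM, although vascular smooth muscle-like cells had 33.8 CPM in library 1 and 0 in library 2. Astrocyte-like cells were not called, because its log2 fold change of 0.999 was just under the limit of 1 (edgeR adjusted p = 9.44e-08). Striatal-type neuron-like cells had 6.51 and 11.7 CPM of Aco1, against 19.4 and 17.3 CPM in the mean of the other classes (log2 -1.09, edgeR adjusted p = 0.0473). This call was lost without the filter on low counts (adjusted p = 0.0606), with DESeq2 (0.0943) and at a limit of 10 cells (0.0614).

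Seen by class, endothelial-like cells had the most calls: 7 of the 10 genes were higher and 0 lower, where 25.0% of all 14881 genes were called, and the median log2 fold change was 1.98 for the 10 genes against -0.24 for all genes. In border macrophage-like cells 6 were higher and 0 lower (24.7% of all genes called), with medians of 1.80 and -0.31. In microglia-like cells 5 were higher and 1, Tfrc, lower (28.3% called), with medians of 0.98 and 0.05. These shares of calls lay above the background. In ependymal-like cells 2 were higher and 2 lower (37.2% called) and in pericyte-like cells 2 were higher and 0 lower (22.6% called), near the background. Among these higher calls, plain mean CPM went the other way for Cp and Hmox1 in endothelial-like cells. It also did so for Slc40a1 in microglia-like cells and for Trf in pericyte-like cells.

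The neural classes had few higher calls. Striatal-type neuron-like cells had 0 higher and 5 lower (21.6% of all genes called), and the medians were -1.29 for the 10 genes and -0.09 for all genes. Neuroblast-like cells had 0 higher and 3 lower, namely Hmox1, Trf and Slc11a2 (21.9% called, medians -1.08 and 0.06). Excitatory neuron-like cells had 0 higher and 2 lower, Hmox1 and Trf (24.7% called). Neural progenitor-like cells had 1 lower, Trf (18.7% called), intermediate progenitor-like cells 1 lower, Hmox1 (17% called), and astrocyte-like cells 1 lower, Trf (22.9% called). Oligodendrocyte precursor-like cells had 1 higher, Cp, whose plain mean CPM went the other way, and 2 lower, Trf and Fth1 (20% called). Apart from striatal-type neuron-like cells, these shares were near or below the background. In striatal-type neuron-like cells, with a median of 1646 UMIs in each library, the lower calls of Slc40a1, Hmox1, Trf and Aco1 were each lost under other settings.

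Between the resident macrophages, border macrophage-like cells had higher levels of Slc40a1, Trf, Tfrc and Cp. These 4 of the 10 genes were called higher and 0 lower, where 7.24% of all genes were called. Slc40a1 was 324 and 242 CPM in border macrophage-like cells, against 74.1 and 52.2 CPM in microglia-like cells (log2 1.97, edgeR adjusted p = 4.72e-11). Trf was 619 and 533 CPM against 193 and 168 CPM (log2 1.45, edgeR adjusted p = 0.000938). Tfrc was 36.0 and 31.9 CPM against 5.92 and 8.90 CPM (log2 1.62, edgeR adjusted p = 0.000772). In library 1 these Tfrc levels rest on 6 UMIs in border macrophage-like and 2 UMIs in microglia-like cells. Cp was 78.1 and 44.6 CPM in border macrophage-like cells, against 0 and 0.732 CPM in microglia-like cells (log2 5.81, adjusted p = 3.33e-15). Fth1 (log2 0.38, adjusted p = 0.200), Ftl1 (-0.14, 0.74) and Hmox1 (-0.08, 0.936) were not called, and Hmox1 lay in opposite directions in the 2 libraries. Slc11a2 (0.14, 0.949), Aco1 (-0.40, 0.703) and Ireb2 (-0.62, 0.266) were not called either. In a wider list of iron handling genes, the uptake genes Lrp1 and Slc39a8 were called lower. Lrp1 was 48.0 and 76.5 CPM in border macrophage-like cells, against 350 and 251 CPM in microglia-like cells (log2 -2.19, adjusted p = 6.63e-12), and Slc39a8 6.00 and 8.92 CPM against 29.6 and 23.2 CPM (log2 -1.77, adjusted p = 0.0139). The 10 border macrophage markers summed to 22170 and 18107 CPM in border macrophage-like cells, against 489 and 542 CPM in microglia-like cells.

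In the capillary wall, pericyte-like cells had less of 6 of the 10 genes than endothelial-like cells and more of 1, where 19% of all genes were called. Tfrc was 51.9 and 24.2 CPM in pericyte-like cells, against 973 and 926 CPM in endothelial-like cells (log2 -4.47, edgeR adjusted p = 6.79e-31). Slc40a1 was 11.3 and 4.84 CPM against 503 and 422 CPM (log2 -5.61), and Fth1 1471 and 1491 CPM against 10026 and 12786 CPM (log2 -3.12). Trf was lower too (log2 -2.42), whereas Cp was higher, at 73.9 and 58.1 CPM in pericyte-like cells, against 10.6 and 6.93 CPM in endothelial-like cells (log2 2.82, adjusted p = 3.89e-08). Hmox1 and Slc11a2 were also called lower (log2 -1.84 and -1.74), with 0 UMIs in the 56 pericyte-like cells of library 2. The Hmox1 call was lost with DESeq2-type size factors (adjusted p = 0.112) and with 4000 variable genes (adjusted p = 0.107). Ftl1 was 1171 and 1186 CPM in pericyte-like cells, against 1029 and 1244 CPM in endothelial-like cells, and was not called. The 10 endothelial markers summed to 372 and 358 CPM in pericyte-like cells, against 10739 and 10500 CPM in endothelial-like cells, and their part in the low Tfrc and Slc40a1 levels of pericyte-like cells was not tested.

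Against astrocyte-like cells, ependymal-like cells had 2 of the 10 genes higher and 2 lower, where 35.0% of all genes were called. Cp was 77.9 and 62.8 CPM in ependymal-like cells, against 1.91 and 2.57 CPM in astrocyte-like cells (log2 4.85, edgeR adjusted p = 3.89e-22). Tfrc was 8.61 and 5.98 CPM against 23.7 and 30.8 CPM (log2 -1.89), and Aco1 17.2 and 8.97 CPM against 32.9 and 34.9 CPM (log2 -1.28). Slc40a1, at 2.58 and 2.99 CPM against 0.318 and 1.03 CPM, was called near the threshold (log2 1.88, adjusted p = 0.0414) and was lost with DESeq2 (0.0626), with 4000 variable genes (0.155) and with stricter cell limits (0.0546). Astrocyte-like clusters were uneven in Tfrc: the cluster led by Myoc and Gfap had 35.7 and 43.2 CPM, and that led by Crym 11.5 and 10.8 CPM.

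**Figure D5:**
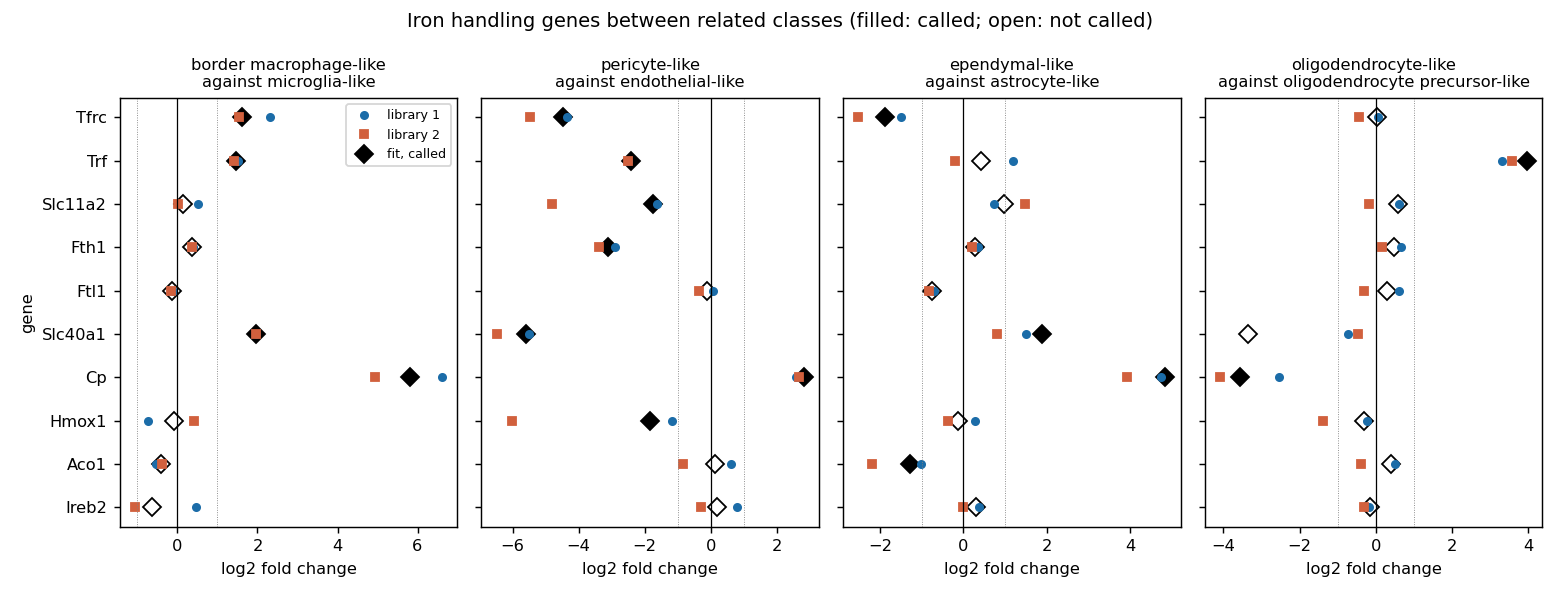
Log2 fold change (x axis) of the 10 genes (rows) in border macrophage-like against microglia-like, pericyte-like against endothelial-like, ependymal-like against astrocyte-like and oligodendrocyte-like against oligodendrocyte precursor-like cells. Circles are library 1, squares library 2 and diamonds the fit, filled where called. Cp has the largest positive fold change in the first 3 panels (5.81, 2.82 and 4.85), and Trf in the last (3.97).

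Along the oligodendrocyte lineage, Trf was higher and Cp lower in oligodendrocyte-like cells than in oligodendrocyte precursor-like cells, in a fit at a limit of 10 cells, chosen after the class sizes were seen, where 19.6% of all 13651 genes were called. Trf was 13 and 40.3 CPM in oligodendrocyte-like cells, against 0.697 and 2.06 CPM in oligodendrocyte precursor-like cells (log2 3.97, edgeR adjusted p = 2.06e-08). Cp was 1 and 0 CPM against 12.5 and 17.3 CPM (log2 -3.58, adjusted p = 3.22e-05). The other 8 genes were not called, and Fth1 was 1310 and 1278 CPM in oligodendrocyte-like cells, against 1040 and 1015 CPM in oligodendrocyte precursor-like cells (log2 0.49, adjusted p = 0.258). In committed oligodendrocyte precursor-like cells 1 of the 10 genes was called, where 7.92% of all genes were: Cp was 2.12 and 0 CPM in committed cells, against 12.5 and 17.3 CPM in precursors (log2 -2.83, adjusted p = 0.00196). Trf was 2.12 and 4.73 CPM against 0.697 and 2.06 CPM there and was not called (log2 1.27, adjusted p = 0.618). Library 2 had 38 committed precursor-like and 13 oligodendrocyte-like cells.

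Neural progenitor-like cells differed from neuroblast-like cells in 1 of the 10 genes, where 21.5% of all genes were called. Hmox1 was 8.88 and 8.15 CPM in neural progenitor-like cells, against 3.36 and 2.69 CPM in neuroblast-like cells (log2 1.53, edgeR adjusted p = 0.00378), and the call was lost with DESeq2-type size factors (0.109), with 4000 variable genes (0.0643) and with doublets kept (0.341). Ftl1 was 1251 and 1639 CPM against 2175 and 2271 CPM (log2 -0.59, adjusted p = 0.00378), under the fold limit. Dividing and non-dividing cells were compared within 4 classes, by a list of 15 mitotic genes, over 8719 genes. Tfrc, whose product rises in dividing cells of many tissues, was 17.7 and 27.5 CPM in dividing cells, against 24.8 and 27.0 CPM in non-dividing cells (log2 -0.16, adjusted p = 0.535). None of the 7 genes that could be tested was called by edgeR or by DESeq2, where 7.72% of all genes were called. At an unadjusted p under 0.05 there was 1, Ftl1 (log2 -0.17).

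Other genes of iron handling were taken from a list of 56, of which 45 could be tested. Against the other classes their contrasts average logs too, so a gene called higher need not have the higher plain mean CPM. In border macrophage-like cells 14 were higher and 3 lower than in the other classes, 9 of the higher ones among the 14 haem genes tested, where 24.7% of all genes were called. Blvrb, a biliverdin reductase, was 1021 and 925 CPM in border macrophage-like cells, against 172 and 190 CPM in microglia-like cells (log2 2.13, edgeR adjusted p = 7.56e-18). Cd163, the receptor for haemoglobin bound to haptoglobin, was 198 and 236 CPM in border macrophage-like cells, against no UMI in microglia-like cells, at least 22.3-fold higher with 3 UMIs per library as the floor. Hfe, whose product binds the transferrin receptor, was 186 and 166 CPM in border macrophage-like cells, against 13 and 15 CPM in the mean of the other classes (log2 6.00). Microglia-like cells also had 14 higher and 3 lower, 8 of them haem genes, where 28.3% of all genes were called. The median log2 fold changes over the 45 genes were 0.04 in border macrophage-like and 0.44 in microglia-like cells, beside -0.31 and 0.05 for all genes.

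In endothelial-like cells 10 of the 45 genes were higher and 5 lower, where 25.0% of all genes were called. Slc39a8, a metal ion importer, was 245 and 184 CPM in endothelial-like cells, against 4.16 and 3.82 CPM in the mean of the other classes (log2 7.99, edgeR adjusted p = 6.17e-49). Flvcr2 was 45.0 and 47.1 CPM against 0.151 and 0.128 CPM (log2 9.08), and the ferrireductase gene Steap3 53.0 and 40.2 CPM against 5.11 and 4.13 CPM (log2 5.27). Lrp1, a receptor that takes up haem bound to hemopexin, was 1.32 and 8.32 CPM against 117 and 102 CPM (log2 -3.94). In the capillary wall, Slc39a8 was 2.26 and 0 CPM in pericyte-like cells, against 245 and 184 CPM in endothelial-like cells, and Lrp1 was 220 and 198 CPM against 1.32 and 8.32 CPM (log2 5.31). Flvcr2 had no UMI in pericyte-like cells, at least 3.25-fold lower than in endothelial-like cells.

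Astrocyte-like cells, with 0 of the 10 genes higher, had 15 of the 45 genes higher and 0 lower, where 22.9% of all genes were called. Cybrd1, a ferrireductase, was 46.6 and 43.9 CPM in astrocyte-like cells, against 3.27 and 2.27 CPM in the mean of the other classes (log2 6.66, edgeR adjusted p = 3.01e-37), and the ferroxidase hephaestin (Heph) 6.05 and 5.65 CPM against 3.88 and 3.63 CPM (log2 3.17). Steap1 was also called higher there (log2 3.14), although its plain CPM was lower, at 1.91 and 1.28 CPM against 2.50 and 2.75 CPM. Ependymal-like cells had 15 higher and 2 lower, near the 37.2% of all genes called there, and 8 of the higher ones were among the 11 uptake and reduction genes. Steap1 was at 26.3 and 26.9 CPM in ependymal-like cells, against 0.287 and 0.419 CPM (log2 7.27), and Lrp2 was at 15.1 and 15 CPM against 0.170 and 0.362 CPM (log2 6.76). The ependymal-like cluster carried RNA of choroid plexus cells, whose part in these levels was not tested. Oligodendrocyte precursor-like cells had 4 higher and 3 lower, where 20% of all genes were called, with the siderophore receptor gene Slc22a17 at 413 and 382 CPM in these cells, against 101 and 97.3 CPM (log2 2.43). Neuroblast-like cells had 0 higher and 8 lower (21.9% of all genes called), striatal-type neuron-like cells 1 and 8 (21.6%), and excitatory neuron-like cells 0 and 6 (24.7%). Pericyte-like cells had 6 higher and 2 lower (22.6%), neural progenitor-like cells 2 and 2 (18.7%), and intermediate progenitor-like cells 1 and 1 (17%).

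Levels of the 10 genes were also compared with each other over the 12 classes, as log2(CPM + 1) means of the 2 libraries. These are descriptions over classes that share libraries. Trf with Slc40a1 (Pearson r = 0.948), Fth1 with Slc40a1 (0.926) and Fth1 with Trf (0.834) were the most alike pairs, while the ferritin genes Fth1 and Ftl1 had r = 0.185 and Hmox1 with Ireb2 -0.876. Among all genes, those most like Tfrc were Fkbp1a (r = 0.963), Pggt1b and Apln, and those most like Slc40a1 were Tmem140 (0.984), Ctla2b and Osgin1. Fam129a (0.982) was most like Fth1, Otulin (0.957) most like Ftl1, with the copy Ftl1-ps1 at 0.95, Zfp991 (0.973) most like Trf and Snx5 (0.967) most like Hmox1. Cp (Gm13594, 0.927), Slc11a2 (Neurl2, 0.917), Ireb2 (Ube3c, 0.954) and Aco1 (Cldnd1, 0.889) completed the set.

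Over whole libraries, all barcodes together, library 2 had more Ftl1 (1384 CPM in library 1 and 2572 CPM in library 2), Trf (13.2 and 58.9 CPM), Slc40a1 (10.5 and 31.2 CPM) and Hmox1 (15.6 and 66.4 CPM) and less Cp (11.3 and 5.05 CPM). Microglia-like cells numbered 95 in library 1 and 1935 in library 2, and pericyte-like cells 444 and 56. Tfrc (39.9 and 40.8 CPM), Slc11a2 (8.69 and 8.63 CPM) and Ireb2 (52.9 and 51.7 CPM) were nearly equal. Within microglia-like cells Trf was 193 and 168 CPM, and Hmox1 501 and 205 CPM. In library 2, microglia-like cells held 1684 of the 3022 Hmox1 UMIs and 1375 of the 2681 Trf UMIs. Unnamed cells of library 2 with few UMIs held these RNAs too. Clusters of 1517, 2008 and 553 such cells had 60.6 to 91.5 CPM of Hmox1 and 41.5 to 53.7 CPM of Trf. The source of the whole-library gap was not tested.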

How the data were processed

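Suspensions of mouse brain cells were run on the Chromium 3′ v3 kit and read on an MGISEQ-2000 sequencer (700 M raw reads a library), per the labels' protocols. The authors deposited raw UMI counts per gene and barcode, which the submitters' processing notes tie to Cell Ranger 6.1.2 and mm10. For the annotation release, the cell calling and overlapping genes, the settings were not given in the sources used here. Totals were 51452085 and 45532691 UMIs in libraries 1 and 2, and no barcode had under 500.

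Barcodes of 500 or more genes and no more than 10% mitochondrial UMIs were kept (12618 and 14965). Doublets were called with Scrublet at an expected rate of 6%, which removed 626 and 898. In library 2 the automatic threshold marked 0, so the highest scores up to that rate were taken. Counts were scaled to 10000 per cell and logged. The 2000 most variable genes, without the 10 genes, the wider iron list, ribosomal and mitochondrial genes, gave 30 components, 15 neighbours and Leiden clusters at resolution 2 (scanpy 1.11.5, Python 3.11.15). Of 41 clusters, 31 were named from 25 marker lists, with at least 3 detected markers. Clusters of few UMIs that came mostly from 1 library were left unnamed, a rule set after seeing the data. The genes and lists were chosen with earlier results of these data known.

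UMIs were summed per class and library and tested with edgeR 4.0.16 in R 4.3.3 (TMM, quasi-likelihood, Benjamini-Hochberg adjustment over all genes tested), with library as a block, because all classes of a library share 1 suspension. DESeq2 1.42.0 was an alternative. Committed precursors were fitted at a limit of 20 cells, and oligodendrocyte-like cells at 10, added after seeing the data. The fit was tested on simulated data. All 10 genes were tested where they passed the filter, and of the wider list examples come from the 3 called genes with the largest change in each direction. Intervals are exact, at 95%, for counting error only. The SE over libraries is that of the per-library differences in log2 CPM, with a pseudocount of 2, and not of the edgeR fold change. Iron-responsive elements were searched in GENCODE M21 transcripts.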

Additional observations from a re-analysis of the deposited data

Results flagged for a closer look

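Each of the 5 values here lay above the highest level of that gene in the compared classes and came from cells outside them. Ceruloplasmin (Cp) RNA in fibroblast-like cells was 176 CPM in library 1 and 281 CPM in library 2, from 42 and 8 cells, where the highest compared value was 78.1 CPM in border macrophage-like cells. Tfrc was 1235 CPM in 2 cells of library 1 in an unnamed cluster, from 17 UMIs, where endothelial-like cells reached 973 CPM. The Poisson 95% interval of 719 to 1977 CPM held that value. Ireb2 was 105 CPM in 109 library 2 cells of an unnamed cluster, from 12 UMIs, with a Poisson 95% interval of 54.1 to 183 CPM that held the highest compared value of 86.7 CPM. Aco1 was 36.3 CPM in 311 library 2 cells of an unnamed cluster, where astrocyte-like cells reached 34.9 CPM. Its Poisson 95% interval of 26.3 to 48.9 CPM held that value as well. None of these differences was tested.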

How the results depend on the processing

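Of the 120 tests of a class against the others, 41 were called, and 18 at a limit of 100 cells (8 classes, 80 tests) and 25 at a log2 limit of 2. The other alternatives gave 33 to 51. At a log2 limit of 2 the border macrophage-like against microglia-like and the ependymal-like against astrocyte-like comparisons kept 1 call each of 4. Neural progenitor-like against neuroblast-like cells had 1 call, and 0 with DESeq2-type size factors, with 4000 variable genes, with doublets kept and at a log2 limit of 2. Committed against uncommitted oligodendrocyte precursor-like cells had 1 call, and 2 at Leiden resolution 1 and with doublets kept. Trf changed sign in astrocyte-like cells with 4000 variable genes (log2 0.19) and in excitatory neuron-like cells with 4000 variable genes (0.27) and at a limit of 100 cells (0.054). The cause of these changes was not tested, apart from the classes dropped at 100 cells.

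Without the replicate block, that is, with no pairing of classes by library, 42 of the 120 tests were called, and none of the 60 called fold changes was lost. With 1 library left there are 0 residual degrees of freedom and no test; the shared direction of the 60 fold changes without replicate 1 and without replicate 2 is part of the call rule. Oligodendrocyte-like cells could not be fitted at resolution 1, with stricter cell limits, with doublets kept or at 100 cells, for lack of cells. DESeq2-type size factors moved the median of all genes by 0.31 in ependymal-like, 0.14 in border macrophage-like, -0.16 in neural progenitor-like and -0.14 in neuroblast-like cells, and no called direction changed. Levels of Cp, Slc40a1 and Trf rest on few UMIs in most neural classes.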
